A study of Homo sapiens and Mus musculus with 27 samples.

Results

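The data described here compare LM2 cells that overexpress MKL1 with control LM2 cells, by RNA sequencing of polyA-selected RNA. The libraries were taken by their labels and table columns, which gave 3 MKL1 and 3 control libraries, 6 of the 27 in the series. LM2 is a human line, derived from the MDA-MB-231 breast cancer line by selection for growth in the lung. Per the labels, both groups are wild type in genotype, and the MKL1 group carries the treatment "WT MKL1 OE", overexpression of the wild-type protein. The sources used here do not state the construct, its promoter, what the control cells carry or whether replicates are clones, pools or separate cultures. The p-values therefore measure only the spread between these samples, which may be technical. Another LM2 group held 3 libraries titled and treated as caMKL1, although their genotype labels run caMKL1, caMKL2 and caMKL3. It entered the fit to share the estimate of spread, and it also entered the filter on low counts. Mouse 4T1 breast cancer cells with control or MKL1 supplied a second line for comparison.

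MKL1, now named MRTFA, is a coactivator of the transcription factor SRF. Monomeric actin binds it and holds it in the cytoplasm. When actin polymerises into filaments the pool of monomer falls, MKL1 enters the nucleus and joins SRF at promoters that carry a short element called the CArG box. The genes known for this element encode actins, the proteins that bind and cross-link actin filaments, components of adhesions, and the contractile apparatus of smooth, cardiac and skeletal muscle. SRF can instead pair with ternary complex factors such as ELK1, through which growth factor signalling reaches early genes such as FOS and EGR1.

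The sequences below show the element that the promoter comparison further on counts, in 10 genes that rose with MKL1. Each is the stretch of 120 bases before the gene's start, read 5′ to 3′ on the gene's own strand from RefSeq (GRCh38.p14), with CArG boxes in capitals: CC, then 6 bases that are each A or T, then GG. The table used holds 1 start per gene, and for ACTG2, CXCL11, MYLK and ACTG1 that start lies inside the span of the gene in the annotation used for counting.
ACTG2 (chr2:73892888-73893007, plus strand): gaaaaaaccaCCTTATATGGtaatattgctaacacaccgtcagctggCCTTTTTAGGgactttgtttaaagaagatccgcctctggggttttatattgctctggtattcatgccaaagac
ACTC1 (chr15:34795550-34795669, minus strand): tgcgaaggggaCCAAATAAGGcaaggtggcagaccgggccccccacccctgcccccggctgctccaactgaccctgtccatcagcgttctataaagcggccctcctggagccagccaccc
MYL7 (chr7:44141333-44141452, minus strand): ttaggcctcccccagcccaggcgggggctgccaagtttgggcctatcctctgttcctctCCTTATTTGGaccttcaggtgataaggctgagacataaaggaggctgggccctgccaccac
LDB3 (chr10:86668391-86668510, plus strand): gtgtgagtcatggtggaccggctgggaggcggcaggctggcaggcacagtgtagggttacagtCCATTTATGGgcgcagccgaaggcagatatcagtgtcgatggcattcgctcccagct
CXCL11 (chr4:76036071-76036190, minus strand): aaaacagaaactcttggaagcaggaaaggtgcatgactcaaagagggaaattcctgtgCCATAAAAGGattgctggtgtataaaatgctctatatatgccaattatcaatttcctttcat
MYLK (chr3:123620549-123620668, minus strand): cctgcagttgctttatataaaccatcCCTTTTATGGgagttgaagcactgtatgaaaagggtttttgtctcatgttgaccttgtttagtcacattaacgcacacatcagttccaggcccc
FHL2 (chr2:105438514-105438633, minus strand): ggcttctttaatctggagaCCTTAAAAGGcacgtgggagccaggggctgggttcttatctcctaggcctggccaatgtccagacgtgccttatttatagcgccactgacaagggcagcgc
FLNA (chrX:154374635-154374754, minus strand): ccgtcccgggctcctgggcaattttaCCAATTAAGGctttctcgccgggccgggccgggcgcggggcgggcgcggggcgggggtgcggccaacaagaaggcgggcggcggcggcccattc
ACTG1 (chr17:81512800-81512919, minus strand): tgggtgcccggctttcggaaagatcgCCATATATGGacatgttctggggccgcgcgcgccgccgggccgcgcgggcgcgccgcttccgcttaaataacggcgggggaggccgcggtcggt
SRF (chr6:43171149-43171268, plus strand): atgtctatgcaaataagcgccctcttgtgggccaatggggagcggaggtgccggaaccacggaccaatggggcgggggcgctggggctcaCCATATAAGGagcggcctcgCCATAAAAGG
ACTG2 and SRF each held a pair of boxes in this stretch. Those of ACTG2 began 110 and 73 bases before the start and those of SRF 30 and 10 bases before it. ACTC1 had 1 box, 109 bases before its start, and MYL7 had 1 at 61 bases. A match is a run of letters, not a measured binding site.

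The 6 libraries held 22147429 to 32147377 counts of read pairs. Levels are given in CPM, counts scaled to a common library total after correction by the trimmed mean of M values (TMM). Each triple of levels lists replicates 1, 2 and 3. Ratios are MKL1 over control on the log2 scale, with the standard error (SE) of the fit. Of the line's own features, VIM, the intermediate filament of mesenchymal cells, lay between 1578 and 1618 CPM in control cells. CDH1, E-cadherin, was below the filter on low counts at 0.0759 to 0.151 CPM in control, and ESR1, the oestrogen receptor, lay between 0.456 and 0.981 CPM. Other genes listed as low in this line that passed the filter lay between 3.95 and 25.6 CPM in control. Of the defining markers of other cells, 1 of 7 leukocyte, 3 of 6 endothelial and 4 of 8 fibroblast genes passed the filter. The summed levels of all listed markers, with those below the filter, were 0.528 to 0.943, 8.81 to 11.2 and 11.2 to 14.3 CPM in control libraries and 0.520 to 1.14, 6.58 to 9.07 and 8.79 to 11.9 CPM with MKL1. CD3E of T cells and DCN and PDGFRA of fibroblasts were at 0.0853 CPM or less in every library, and PTPRC of leukocytes at 0.284 CPM or less. Of the tested markers of other cells, COL3A1, from the fibroblast list, was called higher, from a mean of 0.0918 to 0.840 CPM. The others tested did not pass, and each lay below control or overlapped it. Below the filter, FAP and THY1 of fibroblasts lay above every control in all MKL1 libraries. FAP was at 0 CPM in control and 0.100 to 0.346 CPM with MKL1, and THY1 at 0.0377 to 0.0812 and 0.130 to 0.227 CPM. In bulk RNA, a different number of expressing cells and a different amount of RNA per cell cannot be told apart. Transcripts encoded in mitochondria took 7.73 to 8.94% of counts in control and 6.18 to 9.87% in MKL1 libraries.

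MRTFA, the overexpressed gene (chr22:40410281-40636719, GRCh38), stood at 10.6, 10.3 and 11.5 CPM in the control libraries and 164, 181 and 140.2 CPM in the MKL1 libraries. The groups did not overlap, and the ratio of 3.90 ± 0.15 (SE) was a 14.97-fold rise (adjusted p = 2.47e-10). The counts do not separate transcripts of the construct from those of the cells' own gene.

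MKL1 replicate 1 stood apart. A chi-square of its counts, divided by the number of genes, came to 49.3 against MKL1 replicate 2 and 35.5 against replicate 3. Replicates 2 and 3 gave 20.6, and pairs of controls 2.26 to 7.63. A list of 30 ribosomal protein genes took 1.78% of its counts and 1.23 to 1.29% of those of the other 5 libraries. Among genes called higher with MKL1 it had the highest of the 3 MKL1 values in 840 of 1369 (61.4%), and among genes called lower it had the lowest in 564 of 896 (62.9%). Over all tested genes the same shares were 39.3% and 37.3%. MRTFA itself was highest in replicate 2. That library differed in another measure, with 9.87% of its counts from mitochondria against 6.18% and 7.11% in MKL1 replicates 1 and 3. Leaving out MKL1 replicate 2 gave 1650 genes called higher and 571 lower, among them 1257 and 493 of the original calls. With MKL1 replicate 1 left out, 1074 genes were called higher and 590 lower, among them 993 and 538 of the original calls, and the part that this library's state plays in the size of the response was not tested.

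Of 59453 gene names, 18893 passed the filter and were tested with edgeR's quasi-likelihood test at a Benjamini-Hochberg adjusted p under 0.05. With MKL1, 1369 genes rose (7.25% of those tested) and 896 fell (4.74%). Rises were larger than falls: 506 genes rose at least 2-fold (2.68%) and 206 fell at least 2-fold (1.09%). The median ratio was 0.75 among genes called higher, -0.62 among those called lower and 0.01 over all tested genes. All 3 MKL1 libraries lay above all 3 controls in 1353 of the genes called higher, and below them in 892 of those called lower. Over all tested genes this separation occurred in 16.5% and 15.7%. Under scaling by library totals in place of TMM the balance of calls turned, to 918 higher and 1241 lower, with the median ratio of all genes moved by -0.07. With 1 control library left out, 781 to 821 genes were called higher and 325 to 445 lower. When the 3 MKL1 and 3 control libraries were filtered and fitted alone, 17427 genes were tested. Of these, 1143 were called higher and 814 lower, 386 and 188 of them at least 2-fold.

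Of the 1369 genes that rose, 343 (25.1%) lay under 1 CPM in control, where 25.7% of all tested genes did, and 57 had no count in any control library. Genes with no control count passed the filter only through libraries that overexpress an MKL1 protein, so the counts of list members given below are descriptions of the members that passed. By RefSeq gene type, 1112 of the genes that rose and 777 of those that fell encode proteins, and 73 and 34 are long non-coding RNAs. The plot of level against response shows the rises spread from the lowest to the highest levels, while falls past a ratio of -2 came from genes of at most 3.17 CPM in control.

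**Figure D1:**
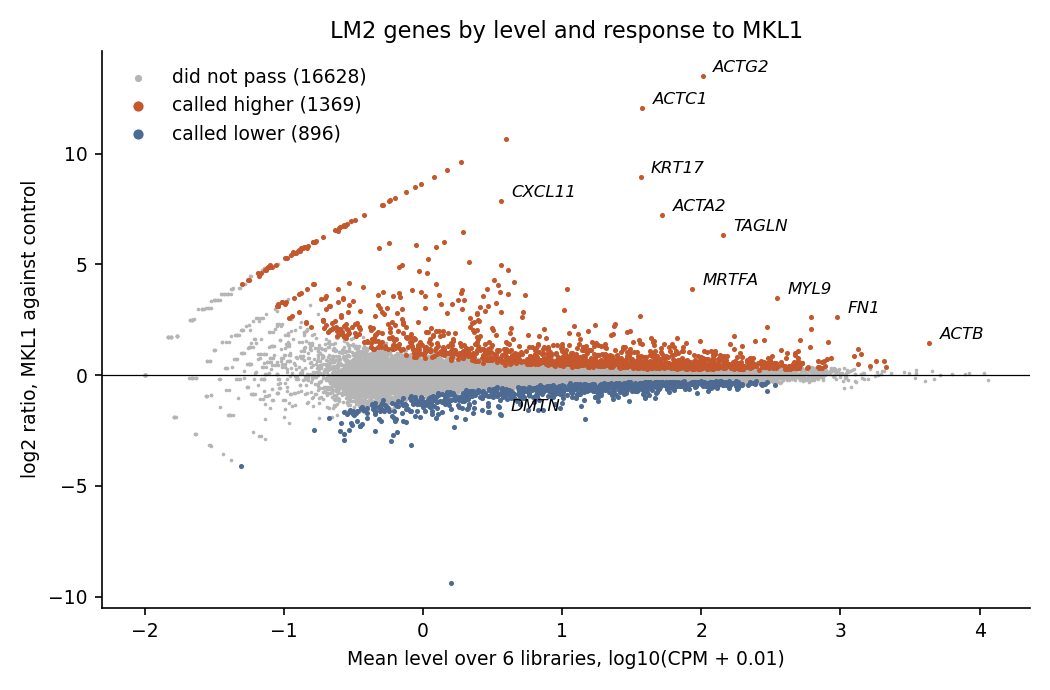
Each point is 1 of the 18893 tested genes. The horizontal axis gives its mean level over the 6 libraries as log10(CPM + 0.01) and the vertical axis its log2 ratio, MKL1 against control. Genes called higher (1369) are orange, genes called lower (896) blue and the rest grey. ACTG2 and ACTC1 lie at the top, with ratios of 13.50 and 12.05 that rest on 1 control count each.

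Of the SRF circuit, 3 of 8 tested genes rose, MRTFA among them, and 2 fell. SRF, the DNA-binding partner, rose from 31.7, 32.4 and 30.5 CPM to 66.5, 52.8 and 54.9 CPM, a ratio of 0.88 ± 0.11 (adjusted p = 5.46e-05). FHL2, a LIM protein that binds SRF, went from 20.9, 19.3 and 16.3 to 52.4, 30.3 and 35.03 CPM (ratio 1.06 ± 0.18, adjusted p = 9.56e-04). Lower were MRTFB, the paralogue of MRTFA, from 70.3, 69.8 and 71.6 CPM to 45.6, 56.6 and 59.1 CPM (ratio -0.39 ± 0.10, adjusted p = 0.0197), and SCAI, a known inhibitor of MRTFA, from 51.1, 46.97 and 51.9 to 28.7, 33.7 and 41.5 CPM (ratio -0.53 ± 0.14, adjusted p = 0.0226). MRTFB no longer passed when any 1 control library was left out (adjusted p 0.0702 to 0.0849), and SCAI no longer passed without control replicate 1 or 3 or without MKL1 replicate 1 or 2 (adjusted p 0.0674 or more). The ternary complex factors ELK1, ELK3 and ELK4 did not pass, with ratios of 0.01, 0.07 and -0.25, the last at an adjusted p of 0.0604, though ELK4 passed under several alternatives, among them DESeq2 (0.0433), library totals (0.0208) and the fit without caMKL1 replicate 1 (0.0456).

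**Figure D2:**
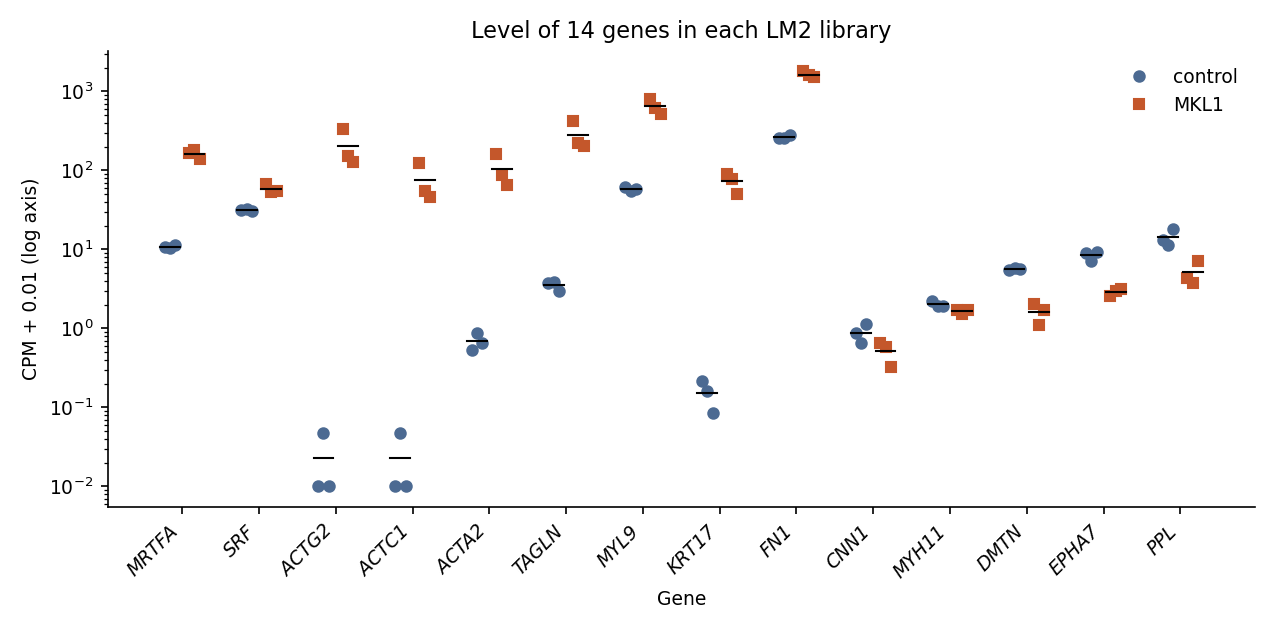
Levels of 14 genes in each LM2 library, as CPM + 0.01 on a log axis, with control libraries as blue circles, MKL1 libraries as orange squares and the mean of each group as a bar. The actins, TAGLN, MYL9, KRT17 and FN1 lie well above control in all 3 MKL1 libraries, CNN1 and MYH11 lie slightly below it without passing the test, and DMTN, EPHA7 and PPL lie below it.

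All 6 actin genes rose. ACTG2, the enteric smooth muscle actin (chr2:73892314-73919865), had 1 count in the 3 control libraries together and reached 337, 152 and 128 CPM with MKL1, a ratio of pooled counts of 15894 (95% interval 2852 to 627820.0). ACTC1, the cardiac actin (chr15:34790230-34795549), also had 1 control count and reached 125, 54.7 and 46.1 CPM, a ratio of 5831 (95% interval 1046 to 230336). ACTA2, the vascular smooth muscle actin, was at 0.528, 0.873 and 0.641 CPM in control and 159, 87.8 and 65.2 CPM with MKL1, a 151-fold rise (ratio 7.24 ± 0.34, adjusted p = 1.57e-09). The 3 controls lay far below all MKL1 libraries in each of these genes, and MKL1 replicate 1 was the highest. ACTB, the ubiquitous cytoplasmic beta-actin, went from 2358, 2261 and 2311 to 8134, 5599 and 5328 CPM (ratio 1.46 ± 0.15, adjusted p = 7.93e-06), and ACTG1, the cytoplasmic gamma-actin, from 849, 837 and 769 to 2497, 1412 and 1618 CPM (ratio 1.17 ± 0.18, adjusted p = 3.88e-04). ACTA1, the skeletal actin, moved at a much lower level, from 0.162, 0.0380 and 0.0377 to 0.468, 0.303 and 0.256 CPM. Its call (adjusted p = 0.0334) was lost without MKL1 replicate 1 and without control replicate 2 or 3. With the 2 groups alone, or at a minimum count of 30, ACTA1 did not reach the filter, and the other 5 actins rose.

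On a scale of CPM per kilobase of exon, which allows genes to be compared, the control cells held almost only cytoplasmic actin: 524 for ACTB, 202 for ACTG1, 0.229 for ACTA2 and under 0.01 for ACTG2 and ACTC1. With MKL1 the level of ACTB was 1442 and that of ACTG1 455, followed by ACTG2 at 53.9, ACTA2 at 34.98 and ACTC1 at 32.9. The muscle actins thus remained the minor forms in MKL1 cells. Actin coding sequences are nearly identical to each other, so pairs that fit more than 1 actin may be missing from these counts.

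Of 8 tropomyosins and tropomodulins, which coat filaments and cap their ends, 6 rose, with a median ratio over the list of 0.88. TPM2 rose from 12.2, 11.2 and 13.9 to 48.9, 54.8 and 43.2 CPM (ratio 1.97 ± 0.11, adjusted p = 1.11e-08). TPM1 rose less, from 82.00, 83.4 and 88.2 to 168, 170.5 and 139 CPM (ratio 0.91 ± 0.10). The largest ratio was that of LMOD1, the leiomodin of smooth muscle, which went from 0.122, 0.0759 and 0.453 CPM to 7.55, 7.45 and 6.17 CPM (adjusted p = 2.19e-08). TPM3 and TMOD3, at a mean of 635 and 233 CPM in control, did not pass (ratios 0.27 and -0.02).

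Genes of smooth muscle identity rose in 10 of 13 members tested, and none fell. The median ratio of the list was 3.88, the value of JPH2, junctophilin, and stays there with the genes that have no control count set at their lower bound. TAGLN, transgelin or SM22, a marker of contractile smooth muscle (chr11:117199370-117207464), went from 3.73, 3.84 and 2.98 CPM to 419, 223 and 202 CPM (ratio 6.32 ± 0.28, adjusted p = 8.00e-10). MYL9, the regulatory light chain of smooth muscle myosin, rose from 61.2, 55.2 and 58.6 to 805, 612 and 524 CPM (ratio 3.47 ± 0.15, adjusted p = 7.75e-10), and MYLK, the kinase of that light chain, from 32.9, 33.6 and 34.4 to 84.03, 65.9 and 55.5 CPM (ratio 1.03 ± 0.15). KCNMB1, the beta subunit of the smooth muscle calcium-activated potassium channel, and CARMN, a smooth muscle long non-coding RNA, had no control count. With control set to 3 counts over the group, KCNMB1 was at least 97.2-fold higher at 6.41, 2.60 and 2.27 CPM, and CARMN at least 61.8-fold higher at 2.64, 2.04 and 2.42 CPM. The 3 that did not pass are classical members of the same programme. CNN1, calponin, was at 0.852, 0.646 and 1.13 CPM in control and 0.635, 0.563 and 0.313 CPM with MKL1 (ratio -0.83 ± 0.33, adjusted p = 0.126). MYH11, smooth muscle myosin heavy chain, was at 2.23, 1.90 and 1.92 and 1.70, 1.52 and 1.68 CPM (ratio -0.30 ± 0.22, adjusted p = 0.424). SMTN, smoothelin, was at 33.9, 35.6 and 32.5 and 43.3, 34.99 and 34.1 CPM (ratio 0.14 ± 0.12, adjusted p = 0.514).

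Striated muscle genes rose in 7 of 15 members tested, 1 fell and 12 of the 27 listed did not reach the filter. With the 2 groups alone, 9 members passed the filter and 4 rose, and the median ratio was 0.18 in place of 1.20. Without MKL1 replicate 1, 5 rose, with a median ratio of 0.41. MYL7, the atrial myosin light chain, had no control count and stood at 14.03, 5.28 and 4.41 CPM with MKL1, at least 204-fold higher. NEXN, which binds actin at the Z disc, rose from 82.3, 74.8 and 68.5 to 142, 217 and 126 CPM (ratio 1.10 ± 0.21). ANKRD1, a cardiac ankyrin repeat protein already abundant in these cells, rose from 401, 349.9 and 311 to 934, 960.5 and 667 CPM (ratio 1.27 ± 0.15). TNNT1, slow skeletal troponin T, was the member that fell, from 67.3, 67.6 and 84.6 to 40.8, 44.6 and 44.1 CPM (ratio -0.76 ± 0.11, adjusted p = 3.10e-04). Outside that list LDB3, a PDZ and LIM protein of the Z disc, rose from 0.0406, 0.0759 and 0.0754 to 1.80, 1.86 and 1.68 CPM (ratio 4.68 ± 0.31, adjusted p = 7.06e-08).

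Adhesion genes rose in part. Of 26 components of focal adhesions and actin cross-links, 11 rose and 2 fell, with a median ratio of 0.32. FLNA, filamin A, rose from 976, 988 and 929 to 1909, 1859.8 and 1841 CPM (ratio 0.96 ± 0.13, adjusted p = 1.10e-04). ACTN1, alpha-actinin, rose from 287, 279 and 259 to 618, 534 and 488 CPM (ratio 0.99 ± 0.10), and ZYX, zyxin, from 41.5, 36.2 and 36.7 to 100.3, 73.5 and 67.9 CPM (ratio 1.08 ± 0.13). TNS1, tensin, fell from 24.8, 25.4 and 24.6 to 14.1, 16.8 and 15.8 CPM (ratio -0.68 ± 0.10, adjusted p = 4.20e-04). SRC, the tyrosine kinase, fell as well (ratio -0.53 ± 0.13), a call lost without control replicate 2 or 3 or MKL1 replicate 2 (adjusted p 0.0789 to 0.0905). FHL1, a LIM protein of the same family as FHL2, fell from 40.9, 39.3 and 49.3 to 27.2, 24.7 and 27.3 CPM (ratio -0.71 ± 0.11), opposite to FHL2. Talin (TLN1, ratio 0.21) and paxillin (PXN, ratio 0.38) did not pass. PXN, at an adjusted p of 0.0605, passed in 9 of 18 alternatives. Among these were DESeq2 (0.0317), the 2 groups alone (0.0483) and the fits without MKL1 replicate 2 (0.0348) or 3 (0.0406). TLN1 passed in 2 alternatives, DESeq2 (0.0465) among them.

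Among 17 integrin subunits 7 rose and 2 fell. ITGA5, the alpha subunit of the fibronectin receptor, went from 76.1, 78.8 and 81.6 CPM to 348, 235 and 215 CPM (ratio 1.75 ± 0.16, adjusted p = 3.14e-06), while its partner ITGB1 rose by 0.40 ± 0.12 from a far higher level of 1396 CPM. ITGA1, a collagen receptor subunit, rose from 78.2, 78.5 and 106 to 238, 240.2 and 222 CPM, and ITGB3 from 7.67, 7.40 and 6.68 to 18.97, 19.4 and 19.3 CPM. ITGB4, the hemidesmosome subunit, fell from 16.8, 17.5 and 22.7 to 10.9, 10.2 and 15.1 CPM (ratio -0.65 ± 0.18, adjusted p = 0.0275), and the leukocyte subunit ITGB2 fell from a mean of 1.99 to 0.931 CPM. The calls of ITGB1, ITGB2 and ITGB4 were the weak ones: ITGB1 lost its call when any 1 control library was left out (adjusted p 0.0841 to 0.141), ITGB2 without control replicate 3, and ITGB4 without control replicate 2 or 3 or MKL1 replicate 1 or 2 (0.0531 to 0.170). Of 30 genes of actin assembly and turnover 11 rose and none fell, led by the depolymerising factors DSTN, from 333, 314 and 308 to 759.7, 604 and 650.3 CPM (ratio 1.08 ± 0.10), and CFL2, from 152, 144 and 131 to 288, 245 and 219.5 CPM (ratio 0.82 ± 0.11). The 11 became 5 without control replicate 1 or 2 and 7 without control replicate 3 or MKL1 replicate 1, with DSTN and CFL2 called throughout.

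Matrix genes rose in part as well. FN1, fibronectin, rose from 260.4, 254 and 279.9 CPM to 1784, 1590.4 and 1499 CPM, a 6.14-fold change (ratio 2.62 ± 0.11, adjusted p = 7.21e-10). No MKL1 library came near the control range. TNC, tenascin C, rose from 112, 126 and 133 to 382, 357 and 357 CPM (ratio 1.56 ± 0.10), and CCN2, connective tissue growth factor, from 253, 240.4 and 223 to 1281, 953 and 760.1 CPM (ratio 2.06 ± 0.15). In all, 7 of 13 members of the fibronectin, tenascin, thrombospondin and CCN list rose and none fell. Of 26 collagens and collagen-modifying enzymes, 12 rose and 2 fell. COL6A3 rose from 8.93, 9.57 and 10.7 to 56.6, 64.1 and 66.9 CPM (ratio 2.68 ± 0.11, adjusted p = 7.21e-10). The partner chains of the same collagen, COL6A1 and COL6A2, had ratios of 0.21 ± 0.15 and 0.19 ± 0.12 and did not pass. COL4A1 and COL4A2, which form the main basement membrane collagen from neighbouring genes with overlapping spans, rose by 1.08 ± 0.10 and 0.93 ± 0.13, while COL4A5, a chain of another basement membrane collagen, had a ratio of -0.72 ± 0.11 and fell. LOX, which cross-links collagen, rose from 34.2, 33.1 and 36.4 to 77.3, 83.1 and 88.3 CPM, whereas its relative LOXL4 fell from 9.38, 7.44 and 9.24 to 4.51, 4.63 and 4.49 CPM. COL1A1, the main fibrillar collagen of fibroblasts, was at 6.21, 5.28 and 6.52 and 5.08, 4.33 and 4.92 CPM and did not pass.

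Genes of plasminogen activation and coagulation rose in 7 of 14 members and fell in none. PLAU, the plasminogen activator urokinase, rose from 101.9, 115 and 119 to 312, 238 and 285 CPM (ratio 1.31 ± 0.12, adjusted p = 2.76e-06). In the same direction went F3, tissue factor, from 481, 432 and 356 to 1542, 1209 and 856 CPM (ratio 1.51 ± 0.17). Of 16 matrix proteases and inhibitors 7 rose and 1 fell. HPSE, the heparanase that cuts heparan sulfate, was the one that fell, from 44.7, 40.1 and 40.2 CPM to 17.5, 17.9 and 20.9 CPM (ratio -1.15 ± 0.11, adjusted p = 6.37e-06). Of the published lung metastasis genes of the MDA-MB-231 line, 8 of 16 tested rose and none fell (5 rose without control replicate 2 or 3), among them TNC above, PTGS2 (ratio 0.84 ± 0.12), MMP1 (ratio 1.21 ± 0.25) and ANGPTL4 (ratio 2.13 ± 0.25). SPARC and FSCN1 of that list had ratios of 0.03 and 0.13 and did not pass.

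Keratins, the intermediate filaments of epithelia, rose in 8 of 14 members tested and fell in none. KRT17, a keratin of basal and stressed epithelium (chr17:41619442-41624842), had 0.203, 0.152 and 0.0754 CPM in control and 90.3, 78.7 and 50.5 CPM with MKL1 (ratio 8.96 ± 0.32, adjusted p = 2.47e-10). In this 498-fold rise the controls lay near the limit of detection and every MKL1 library far above them. KRT14, KRT16 and KRT17 are alike in sequence, and pairs that fit more than 1 of them may be missing. KRT7, a simple-epithelial keratin, rose from 50.6, 49.1 and 50.2 to 181, 135 and 125 CPM (ratio 1.56 ± 0.14). With the 2 groups alone, 11 keratins passed the filter and 6 rose. Fewer keratins were called higher with 1 library left out, 4 without control replicate 1 or 2 and 5 without control replicate 3 or MKL1 replicate 1. KRT14 and KRT16 were among the 8 but stayed at a mean of 0.118 and 0.172 CPM with MKL1, and KRT14 lost its call when any 1 control library, or MKL1 replicate 1 or 2, was left out (adjusted p 0.0526 to 0.101). KRT16 lost its call in those same 5 cases, under library totals and without caMKL1 replicate 3 (0.0518 to 0.177). EPPK1, epiplakin, which binds keratins, rose from 0.690, 0.570 and 1.13 to 8.32, 11.4 and 10.1 CPM (ratio 3.62 ± 0.20, adjusted p = 9.98e-09).

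Several junction genes fell. In the list of desmosome and tight junction genes 5 of 19 members fell (26.3%) and 1 rose (5.26%). PPL, periplakin, fell from 13.2, 11.5 and 18.2 CPM to 4.34, 3.77 and 7.17 CPM (ratio -1.47 ± 0.25, adjusted p = 9.59e-04). CGN, cingulin, fell from 4.75, 5.01 and 5.36 to 2.47, 1.73 and 3.33 CPM (ratio -0.98 ± 0.22), and CLDN1, claudin-1, from 5.28, 4.71 and 4.15 to 2.81, 2.86 and 2.76 CPM (ratio -0.75 ± 0.18). JUP, plakoglobin, went from 16.97, 13.4 and 20.7 to 9.49, 8.62 and 12.7 CPM (ratio -0.72 ± 0.18) and TJP3 from a mean of 0.787 to 0.185 CPM. DSP, desmoplakin, was the member that rose, from 234, 236 and 241 to 349, 454 and 357 CPM (ratio 0.70 ± 0.11). The calls of CGN, CLDN1, JUP and TJP3 were each lost without at least 1 control library (adjusted p 0.0515 to 0.130), while PPL kept its call in every alternative run. LSR, a receptor of tricellular junctions, also fell, from 8.32, 10.1 and 9.69 to 4.71, 3.98 and 4.12 CPM (ratio -1.13 ± 0.19). Among factors of the epithelial-mesenchymal transition SNAI2, the repressor Slug, rose from 18.96, 18.5 and 19.2 to 39.9, 53.2 and 35.4 CPM (ratio 1.18 ± 0.15, adjusted p = 7.17e-05), and ZEB1, ZEB2 and SNAI1 had ratios of -0.09, -0.12 and 0.08 without passing.

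**Figure D3:**
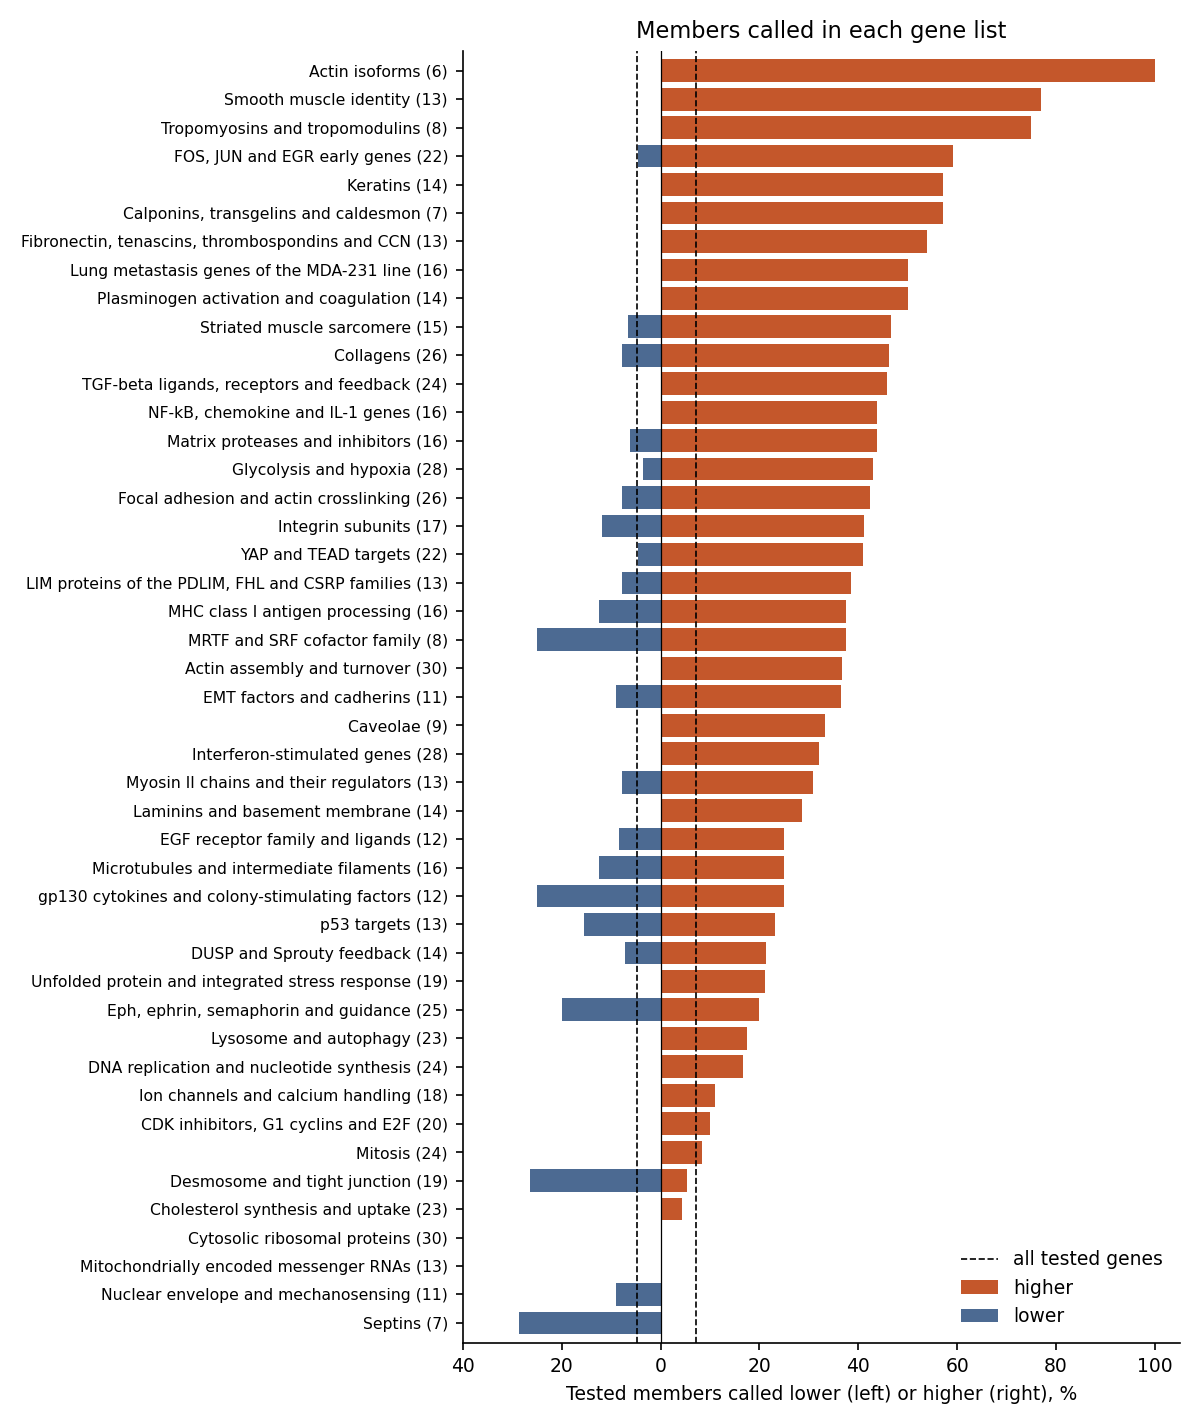
Share of tested members called higher (orange, to the right) or lower (blue, to the left) in gene lists with at least 5 tested members, marker lists and 1 further list left out. The number tested is in parentheses, and dashed lines mark the shares over all tested genes, 7.25% and 4.74%. The actin, smooth muscle and tropomyosin lists lie at the top, with 6 of 6, 10 of 13 and 6 of 8 higher, and the septin and junction lists reach furthest to the left, at 28.6% and 26.3% lower.

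Among the FOS, JUN and EGR early genes 13 of the 22 tested were called higher and 1 lower, leaving 8 that missed the threshold, with 8 higher when control replicate 1 was left out. MYC rose from 38.4, 45.7 and 42.7 to 96.99, 89.2 and 84.3 CPM (ratio 1.09 ± 0.09, adjusted p = 1.39e-06). FOSL1, the FOS-family partner of JUN, rose from 60.1, 59.1 and 61.8 to 107, 109 and 78.8 CPM (ratio 0.70 ± 0.12), and IER3 from 23.5, 29.8 and 37.2 to 55.9, 53.01 and 59.3 CPM (ratio 0.89 ± 0.13). EGR3 rose from a mean of 0.155 to 1.13 CPM. EGR1, a textbook SRF target, was the member that fell (ratio -0.65 ± 0.17, adjusted p = 0.0216). Its levels of 18.6, 25.2 and 30.4 CPM in control and 20.1, 14.9 and 12.5 CPM with MKL1 overlapped, the highest MKL1 library lying above the lowest control, and its call was lost without control replicate 2 or 3 or MKL1 replicate 2 or 3 (adjusted p 0.0699 to 0.152). FOS was at 1.46, 1.75 and 1.40 and 2.14, 2.12 and 1.93 CPM and did not pass (ratio 0.42 ± 0.17, adjusted p = 0.115).

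Of 22 genes known as targets of YAP and TEAD, coactivator and factor of another actin-sensitive pathway, 9 rose and 1 fell. The list shares CCN2, ANKRD1 and F3 with groups above. IGFBP3 rose from 19.04, 16.1 and 17.95 to 68.6, 53.6 and 38.8 CPM (ratio 1.60 ± 0.16), whereas AMOTL1, AMOTL2 and LATS2 had ratios of 0.01, 0.26 and -0.17 and did not pass. Genes of the TGF-beta family and its feedback rose in 11 of 24 members and fell in none. PMEPA1, a feedback inhibitor of SMAD signalling, rose from 20.6, 19.02 and 22.7 to 70.6, 67.4 and 62.7 CPM (ratio 1.69 ± 0.10, adjusted p = 3.28e-08), and INHBA, the activin A subunit, from 5.36, 4.94 and 5.24 to 13.6, 15.2 and 11.2 CPM (ratio 1.36 ± 0.13). FST, which binds activin, rose from 21.6, 21.1 and 15.95 to 63.6, 51.6 and 44.6 CPM (ratio 1.45 ± 0.15). TGFB1 itself and the receptors TGFBR1 and TGFBR2 had ratios of 0.06, 0.25 and -0.12 and did not pass, though TGFBR1, at an adjusted p of 0.0672, passed without MKL1 replicate 1 (0.0404) or 2 (0.0369), and under other alternatives such as DESeq2 (0.0223).

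Cytokine genes divided. CSF2 rose from 0.934, 0.532 and 0.717 to 4.14, 3.64 and 3.44 CPM (ratio 2.36 ± 0.30), and IL6 from 1.01, 1.25 and 1.62 to 3.34, 3.38 and 3.61 CPM (ratio 1.40 ± 0.21, adjusted p = 3.56e-04). IL11, which signals through the same gp130 receptor as IL6, fell from 65.7, 61.2 and 61.2 CPM to 33.3, 29.6 and 28.2 CPM (ratio -1.05 ± 0.10, adjusted p = 6.37e-06). Over the list of gp130 cytokines and colony-stimulating factors 3 of 12 rose and 3 fell, with 1 called lower when any 1 control library, or MKL1 replicate 1 or 2, was left out. NF-kB, chemokine and IL-1 genes rose in 7 of 16 members (4 without control replicate 1 or 3), such as CXCL8 from 4.10, 5.77 and 4.53 to 8.55, 10.6 and 9.19 CPM (ratio 0.97 ± 0.17), but NFKBIA, the feedback inhibitor, did not pass (ratio 0.03).

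A subset of interferon-stimulated genes rose, 9 of 28 tested, and none fell. CXCL11, a chemokine for T cells, had 2 counts in control and reached 7.31, 8.57 and 5.66 CPM with MKL1, a ratio of pooled counts of 271 (95% interval 74.6 to 2239). CXCL10, the neighbouring chemokine gene, was at a mean of 0.0261 and 0.0775 CPM and did not pass. ISG15, a ubiquitin-like modifier, rose from 1.38, 1.48 and 0.981 to 13.7, 7.41 and 6.43 CPM (ratio 2.84 ± 0.37, adjusted p = 8.37e-05), and IFIT2 from 28.9, 20.2 and 20.6 to 70.9, 82.2 and 51.8 CPM (ratio 1.56 ± 0.17). MX1 and IRF1 had ratios of -0.33 and 0.12 and did not pass. In antigen presentation by MHC class I, 6 of 16 genes rose and 2 fell (3 and 1 without control replicate 3). HLA-B rose from 15.2, 16.9 and 16.6 to 55.97, 28.97 and 30.97 CPM (ratio 1.25 ± 0.21) and TAP1, the peptide transporter, from 6.41, 6.23 and 6.52 to 17.3, 11.5 and 11.7 CPM (ratio 1.08 ± 0.18). The peptide-trimming enzyme ERAP2 fell from 356, 328 and 421 to 191, 206 and 275 CPM (ratio -0.72 ± 0.13). HLA genes are highly alike, so pairs that fit several of them may be counted at either or not at all.

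Few genes of proliferation or sterol synthesis passed the test. Of 24 mitosis genes 2 rose and none fell, near the share over all genes, and both calls were lost when any 1 control library was left out. MKI67, a marker of cycling cells, was at 1537, 1550.3 and 1581 CPM in control and 1036, 1786 and 1365 CPM with MKL1 (ratio -0.16 ± 0.15, adjusted p = 0.558), and its MKL1 libraries lay on both sides of the controls. TOP2A had a ratio of 0.09 ± 0.09. DNA replication genes rose in 4 of 24, with ratios between 0.32 and 0.53, in 7 without MKL1 replicate 3 and in none without control replicate 3. The cholesterol list had 1 call among 23, ABCA1, which exports cholesterol and rose from 39.05, 44.2 and 41.8 to 118, 114 and 106 CPM (ratio 1.43 ± 0.09, adjusted p = 3.36e-08). Glycolysis and hypoxia genes rose in 12 of 28 and fell in 1, with 7 higher without control replicate 1 or 2. LDHA, lactate dehydrogenase, rose from 1388, 1416 and 1471 to 2438, 2048 and 2119.9 CPM (ratio 0.63 ± 0.10), SLC2A1, the glucose transporter, from 99.2, 105.1 and 94.5 to 199, 145 and 151 CPM (ratio 0.73 ± 0.13), and GAPDH had a ratio of 0.34 and did not pass, though it did without MKL1 replicate 2 (adjusted p 0.0335) and with no filter on low counts (0.00148). None of 13 mitochondrial messenger RNAs passed edgeR's test, DESeq2's or limma voom's, and 0 had an unadjusted p under 0.05. None of 30 ribosomal protein genes passed edgeR's test, with 9 at an unadjusted p under 0.05, 3 called by DESeq2 and 1 by limma voom. The ribosomal list had a median ratio of 0.27, which was 0.07 without MKL1 replicate 1, the library with the highest sum of these genes.

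Falls were fewer than rises under TMM, though not under library totals. Among genes of at least 5 CPM in control, DMTN, dematin, an actin-bundling protein of the membrane skeleton, fell from 5.44, 5.85 and 5.58 to 2.00, 1.08 and 1.68 CPM, 3.49-fold lower (ratio -1.80 ± 0.21, adjusted p = 3.29e-05). RIMS3 (chr1:40620680-40665682), a regulator of vesicle release, fell from 5.52, 5.09 and 6.07 to 1.503, 1.56 and 1.85 CPM (ratio -1.75 ± 0.21). GNG7, a G protein gamma subunit, fell from 8.48, 10.3 and 11.3 to 3.17, 2.81 and 3.90 CPM (ratio -1.59 ± 0.17), and BCAM, a laminin receptor, from 10.7, 10.03 and 12.2 to 3.17, 3.20 and 4.66 CPM (ratio -1.56 ± 0.19). EPHA7, an ephrin receptor tyrosine kinase, fell from 9.01, 7.06 and 9.24 to 2.54, 2.99 and 3.10 CPM (ratio -1.55 ± 0.17, adjusted p = 1.96e-05). In the list of Eph, ephrin, semaphorin and other guidance genes 5 of 25 fell and 5 rose (3 fell when any 1 control library, or MKL1 replicate 1, was left out). SEMA3F fell from 4.06, 3.87 and 4.87 to 1.34, 1.30 and 2.22 CPM (ratio -1.37 ± 0.23) while its receptor NRP2 rose from 12.1, 8.70 and 12.4 to 24.5, 29.3 and 27.8 CPM (ratio 1.30 ± 0.13). ERBB3, a receptor for neuregulins, fell from 10.8, 11.1 and 12.3 to 6.05, 5.80 and 5.52 CPM (ratio -0.97 ± 0.13), while EGFR did not pass (ratio 0.01). In the genes named in this paragraph that fell, all 3 MKL1 libraries lay below all 3 controls, and in NRP2 they lay above. GNG7, BCAM and EPHA7 were chosen by a rule that required such separation. Over all tested genes, 15.7% lay below and 16.5% above.

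One neighbour of ACTA2 rose too. FAS, the death receptor, starts within the span of ACTA2 in the annotation (chr10:88990531-89017059 and chr10:88935074-88991339) and rose from 5.16, 4.40 and 5.17 to 11.02, 10.2 and 11.9 CPM (ratio 1.17 ± 0.12, adjusted p = 1.18e-05). The headers show no strand option, so in the overlapping stretch pairs of one gene cannot be assigned to a strand.

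CArG boxes were counted in the 250 bases before each start for the genes with a RefSeq promoter, 11571 of those tested, 955 of those called higher and 645 of those called lower. The box is its own reverse complement in form, so both strands are covered. It occurred in 1.16% of promoters of all tested genes, 5.45% of genes called higher (52 genes), 9.31% of genes at least 2-fold higher (27 of 290) and 0.93% of genes called lower (6 genes). The same letters in reversed order (GG, 6 bases of A or T, CC), a comparison added after the data were seen, occurred in 0.743%, 0.838%, 0.69% and 0.62%. Promoters of genes at least 2-fold higher were poorer in G and C than those of all tested genes, with a median of 56.2% against 64.4%. The AP-1 site TGACTCA or its reverse complement occurred in 2.89% of all tested promoters, 4.82% of those of genes called higher, 7.59% at 2-fold and 2.64% of genes called lower. The TEAD site GGAATG or its reverse complement occurred in 9.77%, 12.9%, 15.9% and 8.06%. The motifs were counted separately, and none contains another. Among genes called higher, ISG15, GBP1 and CXCL11 of the interferon response held a CArG box, as did TPM4, CNN2, ITGB6 and MYO1E of the cytoskeleton and adhesion. EGR1, which fell, was among the 6 genes called lower that hold one. ACTA2 had none in the window of the start listed for it, which says nothing about other starts or other positions.

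**Figure D4:**
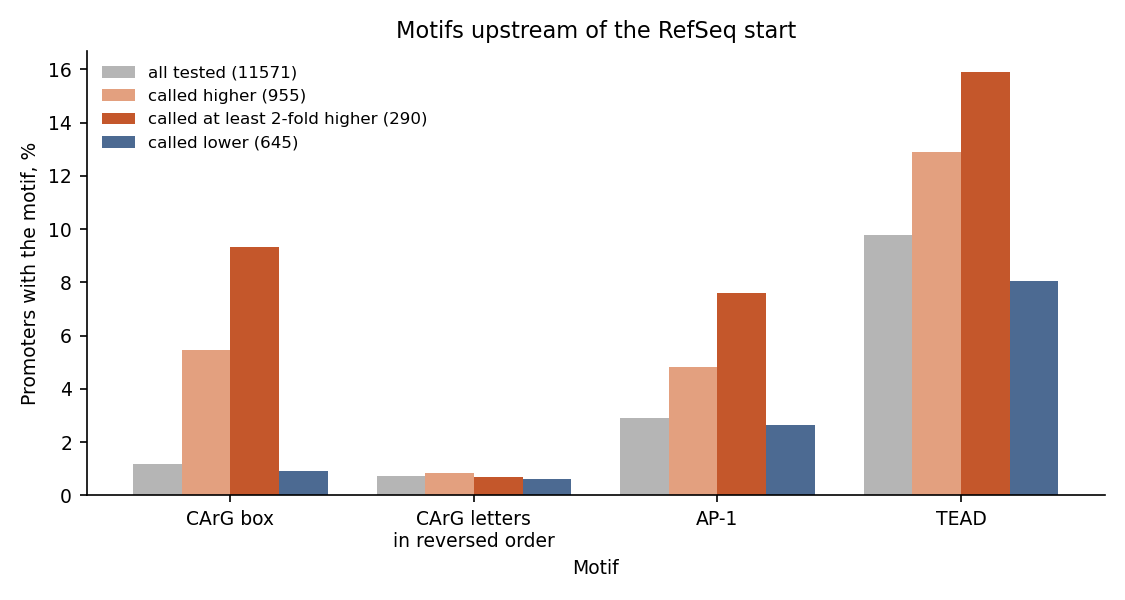
Share of promoters with each motif in the 250 bases before the RefSeq start, in percent, for all tested genes (grey, 11571), genes called higher (light orange, 955), genes called at least 2-fold higher (orange, 290) and genes called lower (blue, 645). The CArG share goes from 1.16% to 9.31% across the first 3 sets, and its letters in reversed order stay under 1% in every set.

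The caMKL1 libraries share the control libraries and the fit, so their levels are set beside those above without a test. Some muscle genes and KRT17 stood far higher there than with MKL1, with ACTC1 at 3169.8, 2079 and 1961 CPM, MYLK at 893, 1259.6 and 1271 CPM and KRT17 at 1344, 1051 and 1022 CPM. Not all genes lay in that order. KRT7, 181, 135 and 125 CPM with MKL1, was at 75.4, 63.5 and 51.8 CPM with caMKL1. PLAU was at 59.7, 44.6 and 48.3 CPM there, below every control library although it rose with MKL1, and SNAI2, which rose too, was at 13.3, 18.6 and 16.7 CPM, beside control levels of 18.96, 18.5 and 19.2 CPM. ZNF641, a zinc finger gene, fell with MKL1 from 18.9, 19.1 and 20.9 to 7.92, 7.10 and 7.42 CPM (ratio -1.39 ± 0.11, adjusted p = 7.70e-07) and was at 22.3, 22.8 and 22.3 CPM with caMKL1. EPB41L1, which links spectrin and actin to the membrane, fell from 23.7, 22.3 and 29.3 to 8.52, 11.9 and 13.6 CPM (ratio -1.14 ± 0.15) and was at 31.5, 33.3 and 32.1 CPM with caMKL1.

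MKL1 overexpression in 4T1 cells, a mouse mammary carcinoma line, gave a second set of 3 MKL1 and 3 control libraries with its own fit. The sources used here do not state whether these cells carry the construct used in LM2. In 4T1 19.3% of 16297 tested genes were called higher and 2449 genes lower, and 10360 genes were tested in both lines under the same symbol. Of the 864 genes called higher in LM2 and matched, 390 (45.1%) were called higher in 4T1, where 23.9% of all matched genes were, and 141 (16.3%) were called lower, where 19.7% of all matched genes were. Of the 200 matched genes at least 2-fold higher in LM2, 117 (58.5%) were higher in 4T1. For the falls, of 591 genes called lower in LM2, 122 (20.6%) were lower in 4T1 and 137 (23.2%) were higher, both close to the shares of 19.7% and 23.9% over all matched genes. Genes that fell in both lines included NOTCH3, from a mean of 2.04 to 0.801 CPM in LM2 (ratio -1.31) and from 2.40 to 0.660 CPM in 4T1 (ratio -1.86). Its LM2 call was lost without control replicate 2 (adjusted p 0.0565). HPSE also fell in both (ratios -1.15 and -0.72).

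**Figure D5:**
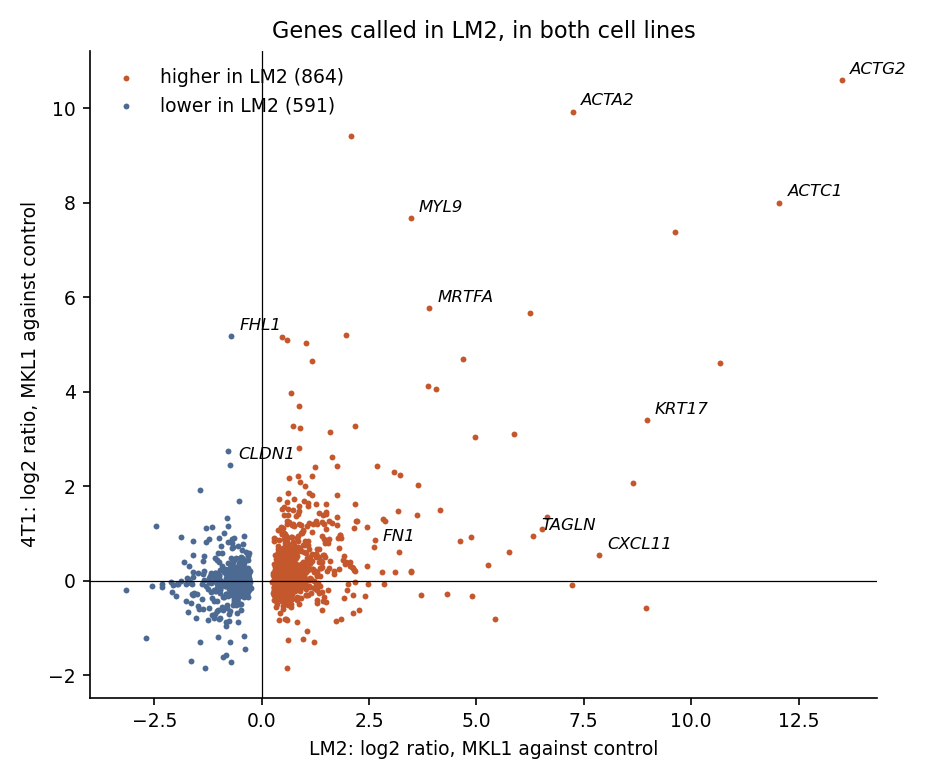
Log2 ratios of MKL1 against control in LM2 (horizontal) and 4T1 (vertical) for the matched genes called in LM2, with 864 genes higher in LM2 in orange and 591 genes lower in blue. Muscle actins lie at the upper right, the blue points lie on both sides of 0 in 4T1, and FHL1 and CLDN1 stand at the upper left.

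Values of single genes in both lines are set side by side here. ACTA2 went from 0.416 to 400.3 CPM in 4T1 (ratio 9.93, against 7.24 in LM2). ACTA1, at 0.342 CPM in LM2 with MKL1, reached 174 CPM in 4T1 (ratio 9.42). TAGLN, with a ratio of 6.32 in LM2, went only from 0.382 to 0.759 CPM in 4T1 (ratio 0.94, adjusted p = 0.0357). CNN1 and MYH11, which did not pass in LM2, rose in 4T1 with ratios of 3.92 and 2.41. FN1 had a ratio of 0.72 in 4T1 from a level of 3594 CPM, and MYC one of 0.04 there without passing. Whether the lines differ in these genes was not tested.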

How the data were processed

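PolyA-selected RNA was sequenced as read pairs. Per the file headers, the authors counted read pairs per gene over exons with featureCounts version 2.0.1 from STAR alignments, with no strand option and no option to count pairs that fit several places; the annotation was Ensembl release 103 on GRCh38 for LM2 and release 102 on GRCm38 for 4T1. The deposited values are whole-number counts. No version of STAR is named in them. The submitters' processing notes name DESeq2.

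Counts were tested with edgeR version 4.0.16 (R 4.3.3): TMM factors, a filter at a minimum count of 10 by group, 1 mean per group over all 9 LM2 libraries, the quasi-likelihood test, and Benjamini-Hochberg adjustment over all tested genes at 0.05. Every adjusted p in the text comes from it, unless an alternative is named beside the value. A prior count of 0.125 enters fitted ratios. Where control had no count, a lower bound was computed with 3 counts over the group, and where it had 1 to 3, a ratio of pooled counts with an exact 95% interval, both covering counting error only. Replicate numbers were not used as pairs in this fit, and the sources used here do not state whether they pair the samples. 4T1 was fitted apart. On simulated data of 17695 genes, 87 of 100 genes changed by 0.75 on the log2 scale and 100 of 100 changed by 1.5 were recovered, with 9 false calls. The changed genes there were drawn from well-counted genes, all genes had the same spread and no replicate stood apart. These figures therefore do not carry over to genes of low counts or to the spread of the MKL1 libraries.

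Alternatives were DESeq2 1.42.0, limma voom 3.58.1, DESeq2 size factors, library totals, no filter, a minimum count of 30, the 2 groups alone, a replicate block and leaving out libraries. The members and gene lists were chosen with earlier results of these data known. Named genes are MRTFA, MRTFB, SRF, ACTA2, TAGLN and KRT17; the 12 largest rises and 12 largest falls among called genes of at least 5 CPM over the 6 libraries without overlap; the 8 largest rises from under 1 CPM in control to at least 1; the 6 largest changes in CPM; and of each list up to 6 called members and up to 4 that did not pass. Named after their values were seen were AMOTL1, AMOTL2, COL4A5, COL6A1, COL6A2, CXCL10, DMTN, EGFR, EGR1, ESR1, FSCN1, GAPDH, GBP1, IL12RB2, IL23R, IRF1, ITGB1, ITGB2, ITGB4, KRT16, LATS2, MKI67, MYO1E, NFKBIA, NOTCH3, RIMS3, SLC35D1, SNAI1, SPARC, SRC, STXBP6, TGFB1, TGFBR2, TLN1, TOP2A and ZEB1. Libraries of LM2 cells with LifeAct, from another experiment of the series, were not used, and some genes and 1 gene list are not reported here.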

Additional observations from a re-analysis of the deposited data

Results flagged for a closer look

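In 18 of the genes named here the 3 MKL1 libraries lay on one side of the controls in LM2 and on the opposite side in 4T1. The difference between the lines was not tested, and with 3 libraries a side such separation is frequent (16.5% of tested LM2 genes lay above and 15.7% below). FHL1 fell in LM2 (ratio -0.71) and rose in 4T1 (5.17). CNN1 and MYH11 lay lower in LM2 without passing (ratios -0.83 and -0.30) and rose in 4T1 (3.92 and 2.41). Of the junction genes, CLDN1 had a ratio of 2.44 in 4T1, against -0.75 in LM2, and those of CGN, JUP and PPL were 0.39, 0.25 and 0.17 in 4T1, all past its test.

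Among genes of adhesion and matrix, TNS1 had a ratio of 0.88 in 4T1, COL1A1 0.65, COL4A5 0.49 and ITGB4 0.17, each called higher there, and each lay lower in LM2, COL1A1 without passing. The same pattern held for the guidance ligand SEMA3F, at 0.41 in 4T1, for the membrane skeleton gene DMTN at 0.39, for MRTFB at 0.26 and for ARHGEF17 at 0.25. The opposite order, higher in LM2 and lower in 4T1, was seen in DDIT4 (-0.36 in 4T1, called), ANGPTL4 (-0.30, not passed) and FOSL1 (-0.20, not passed).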

How the results depend on the processing

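No gene named in the text reversed past the test in any alternative. The count of genes called higher (1369) was 2092 with no filter on low counts and 781 to 1650 when 1 library was left out. The count called lower (896) was 1402 with a replicate block, where 1856 were higher, and 325 to 1095 with 1 library left out. Without control replicate 3 there were 781 higher and 325 lower, without control replicate 1 821 and 445, and without control replicate 2 802 and 441. Without MKL1 replicate 1 there were 590 lower, without MKL1 replicate 2 571, and without the first replicates of both MKL1 and caMKL1 1693 higher and 1177 lower. Genes at least 2-fold lower (206) numbered 134 with DESeq2, 126 at a minimum count of 30, and 100 to 238 with 1 library left out. The share of calls that were higher, 60.4%, was 42.5% under library totals, 72.1% with no filter, 74.3% without MKL1 replicate 2 and 70.6% without control replicate 3. Of LM2 genes called lower, 33.4% were lower in 4T1 under library totals, where 31.4% of all matched genes were. Same-numbered libraries correlated in their deviations from the group means at 0.10, -0.03 and 0.32, and differently numbered ones at -0.22 to 0.16. The cause of these changes was not tested. Of 156 genes named, 120 were called, 101 of them in every alternative, and 19 lost their call in at least 1; of the 36 not called, 6 passed in at least 1. DESeq2 gave no adjusted p for ACTA1, CXCL10, KRT14 and TJP3. Of the 30 ribosomal protein genes, none of which was called, 21 were called higher with no filter and 3 with DESeq2. At these depths a call of a gene under 1 CPM rests on few counts.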

Other observations

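A few members were called in each of several receptor and signalling lists, where 7.25% of all tested genes were called higher and 4.74% lower. Of 9 caveolar genes 3 rose, among them CAV1, the main coat protein of caveolae, from 584, 524 and 523 to 897, 847 and 789 CPM (ratio 0.63 ± 0.10, adjusted p = 6.42e-04). In the EGF receptor family and its ligands 3 of 12 rose and 1 fell: ERBB4 rose from a mean of 0.472 to 1.19 CPM (ratio 1.30 ± 0.27) while its relative ERBB3 fell. The feedback phosphatase DUSP1 rose from 18.8, 21.3 and 18.6 to 39.3, 29.8 and 28.1 CPM (ratio 0.73 ± 0.12). It was 1 of 3 that rose among 14 DUSP and Sprouty genes, and 1 was called higher when any 1 control library was left out. Those fits called 781 to 821 of 19637 to 19672 tested genes higher. Septins, which form filaments of their own at the cell cortex, were called in 2 of 7, both lower: SEPTIN6 (ratio -0.44 ± 0.14) and SEPTIN8 (ratio -0.33 ± 0.08). SEPTIN6 lost its call in most alternatives, among them limma voom (adjusted p 0.0598), the 2 groups alone (0.0544) and each left-out control library (0.0685 to 0.208). SEPTIN8 lost its call with no filter on low counts (0.112) and without control replicate 2 or 3 or MKL1 replicate 2 (0.0878 to 0.109). Of 13 p53 targets 3 rose and 2 fell, with GADD45A, a DNA damage gene, higher (ratio 0.87 ± 0.17) and TP53INP1 lower (ratio -0.61 ± 0.15). The call of TP53INP1 was lost without MKL1 replicate 2 or control replicate 3 (adjusted p 0.0608 and 0.0913). Stress response genes rose in 4 of 19 (1 without control replicate 1 or 2), among them DDIT4, an inhibitor of mTOR signalling, from 8.81, 15.04 and 21.6 to 22.6, 23.6 and 37.3 CPM (ratio 0.88 ± 0.25). DDIT4 lost its call without control replicate 1 or 2 or MKL1 replicate 3 (adjusted p 0.0976 to 0.139), under DESeq2 (0.0872) and under library totals (0.0750).

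IL23R, a subunit of the interleukin-23 receptor (chr1:67138907-67259979, GRCh38), was chosen after its values were seen. It had 3.41, 2.43 and 3.66 CPM in the control libraries, 245 counts in all, and no count in any of the 3 MKL1 libraries, at least 93.0-fold lower with MKL1 set to 3 counts (adjusted p = 4.78e-07). The caMKL1 libraries held 0.115, 0.0940 and 0.248 CPM, below every control library as well. Its neighbours IL12RB2 and SLC35D1 had ratios of 0.10 and 0.15 and did not pass. Only 1 other gene called lower had no count with MKL1, an unnamed clone with 6 control counts. STXBP6, a syntaxin-binding protein, also fell far, from 1.95, 1.29 and 1.13 to 0.167, 0.173 and 0.142 CPM (ratio -3.15 ± 0.40, adjusted p = 6.84e-05). Over 23 chromosomes the median ratio of genes at 5 CPM or more in control lay between -0.03 and 0.08.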
